A study of Mus musculus with 12 samples.

Results

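Methylated regions of the hippocampal genome outside gene promoters were compared between mice exposed to ethanol before birth and unexposed mice. Peaks of the 4 libraries were merged into 58660 regions, out of 88757 outside promoters over all 8 peak lists of the series and 91177 when promoter regions are included. A region was called gained when both Ethanol libraries and neither Control library had a peak there, and lost in the opposite case. There were 2526 gained regions (4.31% of all regions) and 825 lost regions (1.41%). Peaks were chosen by the class given to them in the files, Genebody or Intergenic. These classes hold peaks with a summit more than 2000 bp from the start site of the gene assigned there, and 1 mitochondrial region with no gene. Start sites of other transcripts were not checked, so a region may still lie at the promoter of another transcript.

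DNA methylation in mammals is found mainly at cytosines followed by guanine (CpG), and most CpGs in gene bodies, intergenic DNA and transposable elements of a mature tissue are methylated. Methylation at promoters goes with silencing, whereas methylation in gene bodies is common at transcribed genes, and distal regulatory elements can lose or gain it during development. The hippocampus, a structure for learning and memory, develops partly before and partly after birth. Ethanol is known to interfere with the supply of methyl groups for DNA, so the whole genome, and not promoters alone, is of interest after prenatal exposure.

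Tissue came from male C57BL/6J mice at postnatal day 70, and DNA was enriched with an antibody against 5-methylcytosine before sequencing (MeDIP-Seq). Ethanol mice were born to dams that drank a 10% ethanol solution by choice during gestation and, per the study's methods, up to postnatal day 10, and Control mice to dams given water. Pups of the Stress and Ethanol + stress groups, used here only as outside libraries, spent 3 h of each day away from the dam between postnatal days 2 and 14, the latter after the same ethanol exposure. Each group had 2 enriched libraries, each from 1 mouse, and 1 input library from another mouse of that group. Peaks were called against the input of the own group, so treatment and input cannot be told apart. Whole hippocampus holds many cell types, and a change in methylation cannot be told apart from a change in the mix of cells. A peak is a call of enrichment and not a methylation level, and all positions are given in mm10.

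The printed windows are examples of single regions and were not chosen to be typical. Each holds 300 bases around the summit, read from the plus strand of the reference, with CpGs in capitals. The first 4 are gained regions, those near Klra2 and Lhx9 being among the highest in rank. Those near Zic1 and Cdh11 come from the lists of developmental factors and cadherins. The last, near Peli2, had the highest rank of the lost regions that were ranked.
Klra2 (gained, chr6:131063959-131064258): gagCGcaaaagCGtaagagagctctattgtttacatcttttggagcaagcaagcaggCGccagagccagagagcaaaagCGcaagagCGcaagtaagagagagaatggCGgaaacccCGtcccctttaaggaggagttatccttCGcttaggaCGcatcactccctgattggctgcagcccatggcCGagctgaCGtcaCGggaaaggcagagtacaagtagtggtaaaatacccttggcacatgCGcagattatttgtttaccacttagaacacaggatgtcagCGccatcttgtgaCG
Lhx9 (gained, chr1:138805708-138806007): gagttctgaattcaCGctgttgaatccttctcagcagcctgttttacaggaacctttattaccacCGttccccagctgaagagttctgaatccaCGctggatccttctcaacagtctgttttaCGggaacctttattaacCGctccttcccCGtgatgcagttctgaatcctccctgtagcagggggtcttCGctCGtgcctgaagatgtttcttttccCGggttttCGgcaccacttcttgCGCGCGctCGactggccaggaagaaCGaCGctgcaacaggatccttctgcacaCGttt
Zic1 (gained, chr9:90864050-90864349): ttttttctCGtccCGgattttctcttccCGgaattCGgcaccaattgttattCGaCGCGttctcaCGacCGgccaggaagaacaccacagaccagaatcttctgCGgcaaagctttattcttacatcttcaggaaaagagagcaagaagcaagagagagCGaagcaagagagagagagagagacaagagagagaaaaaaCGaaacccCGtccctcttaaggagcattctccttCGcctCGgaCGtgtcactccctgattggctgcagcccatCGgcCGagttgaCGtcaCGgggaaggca
Cdh11 (gained, chr8:101360668-101360967): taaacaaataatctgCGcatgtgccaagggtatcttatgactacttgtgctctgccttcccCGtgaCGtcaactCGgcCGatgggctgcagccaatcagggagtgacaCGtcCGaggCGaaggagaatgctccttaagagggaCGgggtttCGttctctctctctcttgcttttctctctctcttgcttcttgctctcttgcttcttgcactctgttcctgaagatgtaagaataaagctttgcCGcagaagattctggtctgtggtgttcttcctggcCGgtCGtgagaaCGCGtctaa
Peli2 (lost, chr14:47983605-47983904): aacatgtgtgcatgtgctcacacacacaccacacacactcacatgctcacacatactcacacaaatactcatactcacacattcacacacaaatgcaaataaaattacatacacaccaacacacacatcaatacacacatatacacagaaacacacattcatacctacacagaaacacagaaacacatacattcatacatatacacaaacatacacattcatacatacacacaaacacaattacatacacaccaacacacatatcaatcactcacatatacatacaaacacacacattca
The gained windows held 15, 17, 20 and 15 CpGs in this order, and the lost window 0. Such windows varied, since the window of the highest ranked gained region, near Obox6, held 10 CpGs and that of a lost region near Efna5 held 9. Only 8.24% of lost regions had no CpG in 500 bp.

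Several of these windows shared sequence although they lay on different chromosomes. Masked repeats made up 83.2% of the 500 bp around the summit near Klra2, 95.2% near Cdh11 and 100% near Lhx9 and Zic1. Around the lost summit near Peli2 they made up 78.4%. The windows near Zic1 and Cdh11 had a stretch of 103 bases in common on opposite strands. The longest stretch held by the Klra2, Zic1 and Cdh11 windows was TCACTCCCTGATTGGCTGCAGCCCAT, chosen for a search after the windows were seen. Searched on both strands in the 500 bp around each summit, it occurred at 109 gained regions (4.32%) and 7 lost regions (0.848%), against 3.25% of all 58660 regions and 6.76% of the regions with a peak in all 4 libraries. It was also found at 154 regions (4.08%) shared by Control 1 and Ethanol 1 alone and at 8 (1.21%) shared by Control 1 and Ethanol 2 alone. Control 2 and Ethanol 1 alone had it at 85 regions (2.69%), and Ethanol 1 without the others at 2.59%, both below all regions. The stretch came from gained windows, so its share at gained regions is no independent value. The CA repeat CACACACACACA, searched in the same way, occurred at 26.7% of gained and 33.9% of lost regions, against 17596 (30%) of all regions.

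The libraries differed more within the Ethanol group than between groups. Control 1 and 2 had 26917 and 23311 peaks outside promoters, and Ethanol 1 and 2 had 44653 and 22239. Ethanol 1 thus lay above both Controls and Ethanol 2 below both. The difference of the means was 8332 (two-sided exact permutation p = 1, and 1 when adjusted over 4 measures), and 2 against 2 libraries cannot give a p below 0.333. Without Ethanol 1 the difference turned to -2875.

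Other properties of the peaks overlapped between the groups. The share of peaks in gene bodies was 25.7% and 25.8% in Control and 27.4% and 25.1% in Ethanol (exact permutation p = 1, adjusted p = 1). The median peak length was 574 and 586 bp in Control and 594 and 561 bp in Ethanol (exact permutation p = 1, adjusted p = 1). The median fold enrichment, the ratio of a peak to its local background, was 7.73 and 8.19 in Control and 8.13 and 6.97 in Ethanol (exact permutation p = 0.667, adjusted p = 1). Peaks of Ethanol 1 had a median of 1.8 CpGs per 100 bp, against 1.4 in each of the other 3 libraries. Read totals were not in the files, so depth was unknown.

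The pattern of sharing among libraries followed Ethanol 1. Of the 58660 regions, 29132 (49.7%) had a peak in 1 library, 11357 (19.4%) in 2, 8170 (13.9%) in 3 and 10001 (17%) in all 4. The 2526 regions of the Ethanol pair were fewer than the 3778 shared by Control 1 and Ethanol 1 alone and the 3158 shared by Control 2 and Ethanol 1 alone. The 825 regions of the Control pair were more than the 659 shared by Control 1 and Ethanol 2 alone and the 411 shared by Control 2 and Ethanol 2 alone. Of the 6 pairs the Ethanol pair was therefore neither the largest nor the smallest, and neither was the Control pair.

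**Figure D1:**
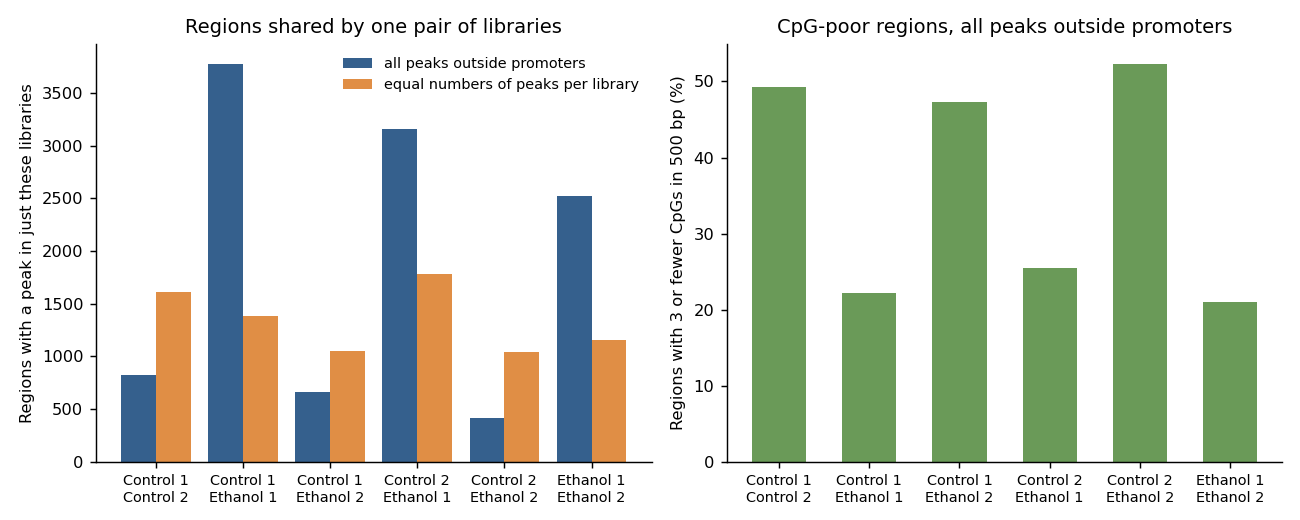
Left, number of regions (vertical axis) with a peak in exactly the 2 libraries named below the bars, with all peaks outside promoters (blue) and with 22239 peaks per library (orange). Right, percentage of those regions, from all peaks, with 3 or fewer CpGs in 500 bp. With all peaks the 3 pairs that include Ethanol 1 had 2526 to 3778 regions and the others 411 to 825, and CpG-poor regions made up 21.0% to 25.5% of the former and 47.3% to 52.3% of the latter.

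Gained regions were richer in CpG than lost regions, and this too moved with Ethanol 1. The median was 1.8 CpGs per 100 bp at gained and 0.8 at lost regions, against 1.4 over all regions and 2.0 at regions with a peak in all 4 libraries. Regions with 3 or fewer CpGs in 500 bp made up 21.0% of gained and 49.3% of lost regions. No CpG at all was present at 76 gained (3.01%) and 68 lost regions (8.24%). Among regions shared by 1 Control and 1 Ethanol library, those with Ethanol 1 had a median of 1.6 and those with Ethanol 2 medians of 0.8 and 0.6. Regions peculiar to Ethanol 1 numbered 17175 with a median of 1.8, and those peculiar to Ethanol 2 numbered 4787 with a median of 0.8. The part of Ethanol 1 in the contrast between gained and lost regions was not tested beyond these values.

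Repeats made up a median of 43.0% of the sequence around gained summits and 58.2% around lost summits, against 48% over all regions and 75.6% at regions with a peak in all 4 libraries. In regions shared by 1 Control and 1 Ethanol library (mixed pairs) the medians were 42.5% and 45% with Ethanol 1 and 55.8% and 62.2% with Ethanol 2. Other features were as follows. Of gained regions 27.1% and of lost regions 25.2% were in gene bodies, against 26.9% of all regions. The median distance from summit to transcription start site was 57648 bp for gained and 64043 bp for lost regions, against 57179.5 bp overall. Within 10 kb of a start lay 12.5% of gained and 12.7% of lost regions, and beyond 200 kb 19.8% and 21.3%. By the GENCODE annotation 42.8% of gained and 41.9% of lost summits were intronic, 3.29% and 1.82% in coding exons (all regions 4.2%), and 50.2% and 53.8% intergenic.

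The strength of the calls also differed little. At gained regions the median fold was 7.71 in Ethanol 1 and 6.61 in Ethanol 2, and at lost regions 7.31 in Control 1 and 7.30 in Control 2. Regions with a peak in all 4 libraries had higher medians, from 8.40 in Ethanol 2 to 13.6 in Ethanol 1. In 147 gained (5.82%) and 29 lost regions (3.52%) the weaker peak had a −log10 q under 10, near the authors' limit of 5. A peak of the opposite group lay within 1000 bp at 200 gained (7.92%) and 68 lost regions (8.24%). Nearby peaks of any class were counted, but the 6 gained and 3 lost regions overlapped by an opposite peak classed Promoter were not.

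A few calls depended on the border between promoter and other peaks. At 6 gained regions a Control library had a peak classed Promoter at the same place, namely near D630023F18Rik, Sctr, Ptpn7, Nfatc1, Obox6 and Btbd16. At 3 lost regions, near Lyg2, Alox12 and Lrg1, an Ethanol library had one. The region near Obox6, a homeobox gene of oocytes, had the highest rank of the gained regions that were ranked. Its folds were 26.1 and 15.9 in Ethanol 1 and 2, and its summit lay 2184 bp from the start. A Control peak classed Promoter lay at the same place, so this call depended on the class limit of 2000 bp. With promoter peaks counted as present, 2520 gained and 822 lost regions remained.

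The balance of gained and lost regions turned when each library contributed an equal number of peaks. With the strongest 22239 peaks by q-value, the number in Ethanol 2, there were 42285 regions, of which 1160 were gained (2.74%) and 1610 lost (3.81%). This step kept 49.8% of the peaks of Ethanol 1, 82.6% of Control 1, 95.4% of Control 2 and all of Ethanol 2. Of the 2526 gained calls 970 (38.4%) were kept, and of the 825 lost calls 616 (74.7%). Trimming fell mostly on Ethanol 1, so gained calls were more exposed to it than lost calls by construction. The weakest peak kept had a −log10 q of 27.9 in Ethanol 1, 15.2 in Control 1, 12.7 in Control 2 and 5.08 in Ethanol 2. A place where a peak of Ethanol 1 was trimmed and both Control peaks were kept could thus become a lost call.

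The other pairs moved in the same way. Pairs of 1 Control and 1 Ethanol library then shared 1040 to 1778 regions, a range that took in both the Ethanol pair and the Control pair. Gained regions had a median of 2.2 CpGs per 100 bp and lost regions of 0.8 in this setting, so the contrast in CpG remained while the balance of the counts did not. Among peaks of equal number, the median CpG density was 2.2 for Ethanol 1 and 1.4 for the other 3 libraries.

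Gained and lost regions were spread over all chromosomes except the mitochondrial genome, which had 1 region, with a peak in every library. The gained share ran from 3.41% of regions on chromosome 8 to 4.93% on chromosome 9. On the autosomes the lost share ran from 0.871% on chromosome 15 to 1.81% on chromosome 19. The sex chromosomes had higher lost shares, with 23 of 861 regions (2.67%) on X and 28 of 778 (3.6%) on Y. On Y gained regions numbered 27 (3.47%), so gained and lost regions were nearly equal there. Peaks on Y numbered 361 and 314 in Control and 419 and 419 in Ethanol, and Ethanol 1 had no surplus over Ethanol 2 on this chromosome. The mouse Y long arm consists largely of amplified near-identical sequence, where the placement of reads is uncertain.

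**Figure D2:**
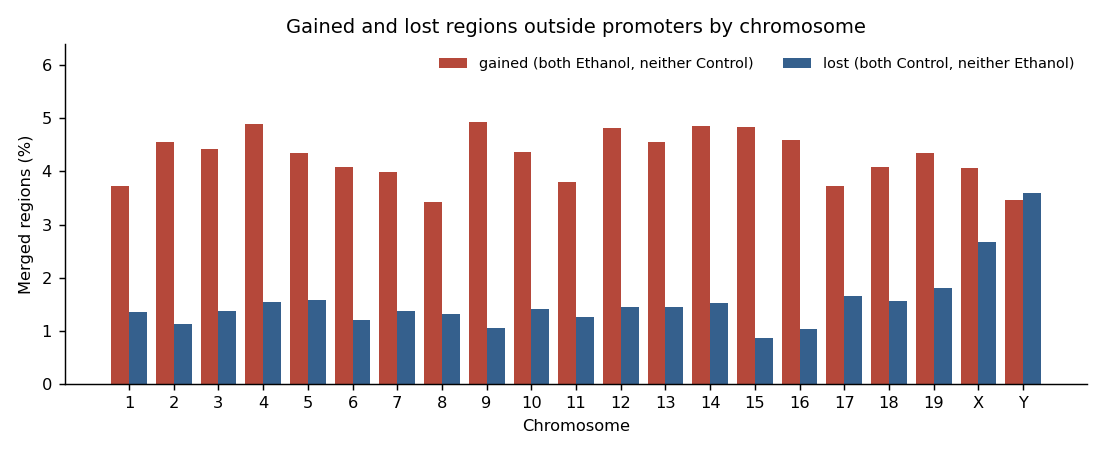
Percentage of the merged regions of each chromosome (horizontal axis) that were gained (red) or lost (blue). Gained shares lay between 3.41% and 4.93%, and lost shares were highest on X at 2.67% and Y at 3.6%.

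The regions were next assigned to genes, the nearest as given in the files. Of 11918 genes with any region, 1984 (16.6%) had at least 1 gained and 760 (6.38%) at least 1 lost region. Both were present at 231 genes, and 1597 of the gained genes had a single gained region. A gene with many regions has more chances of a call, so the counts below are given with the number of regions.

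Genes with the most gained regions had many regions in all. Vrk1, a nuclear kinase, had 8 gained of 89 regions, all 8 intergenic and spread from position 106176390 to 106558562 on chromosome 12. Their folds ran from 5.62 to 13.98 in Ethanol 1 and from 5.18 to 7.68 in Ethanol 2. Ajap1, a protein of adherens junctions, had 6 gained of 79 regions. Chd7, a chromatin remodeller of neural development, had 6 of 53, of which 4 lay in the gene body. Igfbp7, a secreted binding protein of insulin-like growth factors, had 6 of 37. Cbln4, a synaptic organiser of the cerebellin family, had 5 of 63 and was named ahead of other genes with 5 by alphabet alone. With equal numbers of peaks Vrk1 kept 5, Chd7 3, Cbln4 2, and Ajap1 and Igfbp7 1 each.

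At least 3 lost regions were assigned to 16 genes, of which 12 were predicted genes or others of the kinds not named here. Gpam, an enzyme of glycerolipid synthesis, had 4 lost of 23 regions, all intergenic, and also 5 gained ones. Asap2 (a regulator of Arf GTPases), Cntnap4 (a synaptic adhesion protein of interneurons) and Jarid2 (a Polycomb cofactor) had 3 each, of 50, 13 and 30 regions. Jarid2 also had 2 gained regions, Asap2 1 and Cntnap4 0. With equal numbers of peaks Gpam and Asap2 kept 3 lost calls each, Cntnap4 2 and Jarid2 0. At Cntnap4 a lost region in an intron (chr8:112818991-112819549) had Control folds of 9.82 and 9.08. Its other lost regions lay 172968 bp upstream, with folds of 10.2 and 7.61, and 37703 bp upstream, with folds of 4.65 and 5.67. The lost regions near Gpam spanned positions 54633794 to 55128997 on chromosome 19, and its gained regions lay inside that span, from 54829247 to 55116909.

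The strongest gained regions were mostly intergenic and rich in CpG. Regions were ranked by the lower of their 2 percentiles of fold, each taken within a library. This ranking left out predicted genes, small RNAs, pseudogenes and olfactory or vomeronasal receptors. The first 12 had folds between 9.83 and 32.0, 5 to 34 CpGs in 500 bp (median 21.5) and lay 2184 to 1078672 bp from a start. Many consisted largely of repeats, against a median of 43.0% over all gained regions. Repeats made up 100% of the sequence around the summits near Obox6, Lhx9, Pdcd10, Ptchd1, Shox2 and Zic1. The share was 83.2% near Klra2, 82.4% near Actr10 and 76% near Fcgr1. It was 20% near Manea, 17.6% at Zfp407 and 5.6% at Arpc1b. After Obox6 came a region 183252 bp downstream of the start of Klra2, a receptor of natural killer cells (chr6:131063778-131064471), with folds of 16.9 and 12.7. Next was a region 36585 bp from Lhx9, a LIM homeobox factor of the developing brain (chr1:138805243-138806273), with folds of 15.7 and 15.1. A region 501598 bp from Zic1, a zinc finger factor of hindbrain development (chr9:90863829-90864577), had folds of 13.1 and 10.2. Each of these 3 had a peak in all 4 libraries of the separated groups as well.

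Further ranked regions lay at genes of varied function. In a coding exon of Arpc1b, a subunit of the actin-nucleating Arp2/3 complex (chr5:145123373-145124076), folds were 17.2 and 10.2. Upstream of Ptchd1, an X-linked gene of intellectual disability, a region 231694 bp away (chrX:155854780-155855367) had folds of 32.0 and 10.5, the widest gap between the Ethanol libraries among the 12. A Control peak lay 347 bp from it, 317 bp from the Zic1 region and 264 bp from the region near Pdcd10, a gene of cerebral cavernous malformation. The remaining ranked regions were near Zfp407, Fcgr1, Shox2, Manea and Actr10. Of the 12, 8 had a peak in all 4 libraries of the separated groups, with or without ethanol.

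The strongest lost regions were poorer in CpG than the strongest gained ones. The first 12 lost regions had folds between 9.40 and 13.8 and a median of 3 CpGs in 500 bp, and 7 had 3 or fewer. The highest gained folds were those of Ethanol 1, and in Ethanol 2 the first 12 gained regions had 9.83 to 15.9. Those 12 were drawn from 2526 calls and the lost ones from 825, so the tops of the 2 sets are not alike by construction. The first lay 137112 bp upstream of Peli2, a ubiquitin ligase of innate immune signalling (chr14:47983543-47984170), with Control folds of 11.5 and 12.3 and no CpG in the window. The next lay 138803 bp upstream of Hdac4, a histone deacetylase of neurons (chr1:92286898-92287531), with folds of 10.7 and 10.9. Near Ccl21b, a chemokine of lymphoid tissue with near-identical copies (chr4:41912700-41915251), folds were 10.2 and 12. A region 908939 bp from Efna5, an ephrin that guides axons (chr17:61972116-61972696), had folds of 11.9 and 10.3. In an intron of Gas7, a growth arrest gene of neurons (chr11:67640481-67641271), folds were 11.9 and 9.96. Others lay near Vamp3, Dsc3, Defa5, Tmprss2, Mrpl42 and Zfhx3. Of the 12, 7 had a peak in all 4 libraries of the separated groups, against 15.4% of all lost and 28.8% of all regions, which were not picked for high fold. All 24 ranked regions kept their call with equal numbers of peaks, which their choice by strength favours.

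Gene lists fitting brain and treatment had shares of gained and lost regions around those of all regions. Among 19 lists with at least 100 regions, the gained share ran from 2.83% to 6.14% (median 4.39%, all regions 4.31%) and the lost share from 0% to 2.31% (median 1.07%, all regions 1.41%). The gained share was above that of all regions in 11 lists and the lost share in 7. These are descriptions, since neighbouring regions and libraries of a group are not independent.

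**Figure D3:**
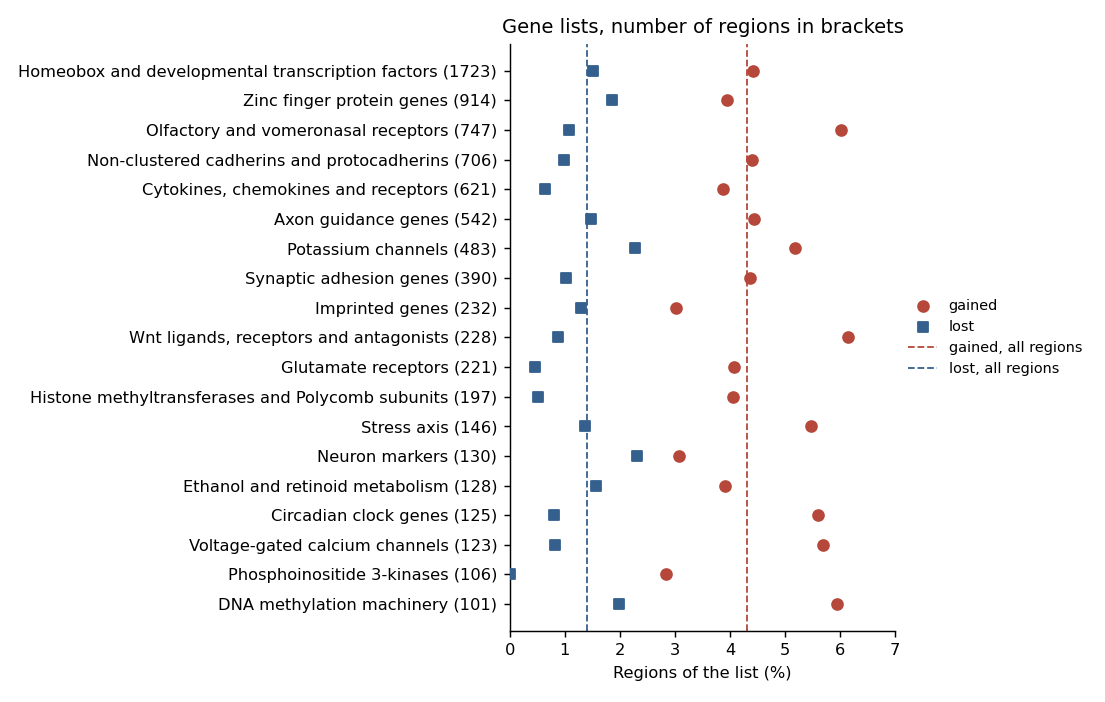
Percentage of regions (horizontal axis) nearest to genes of each list that were gained (red circles) or lost (blue squares), with the share over all 58660 regions as dashed lines and the number of regions of the list in brackets. The gained shares of the 19 lists with at least 100 regions lay between 2.83% and 6.14% on both sides of 4.31%.

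Receptors and channels of neurons came first. Glutamate receptors had 9 gained (4.07%) and 1 lost (0.452%) of 221 regions. Grik3, a kainate receptor subunit, had 5 of the gained ones, among them a region 124334 bp upstream with folds of 8.96 and 9.83. Grik4, another kainate subunit, had the lost one in an intron (chr9:42719049-42719687), with Control folds of 10.2 and 7.60. GABA receptors had 1 gained of 54 regions (1.85%), in an intron of Gabrr1, and 0 lost. Voltage-gated calcium channels had 7 gained (5.69%) and 1 lost (0.813%) regions, and 2 of the gained were at Cacna2d3, an auxiliary subunit. One of these, 44217 bp upstream of the gene (chr14:29765741-29766447), had folds of 11.4 and 15.9. Cacna1e, the pore of R-type channels, had the lost region 33273 bp upstream of the start used in the files (chr1:154758823-154759455), with Control folds of 16.5 and 9.08 and no CpG in 500 bp. From promoter differences, the study singled out calcium channels, NMDA receptor regulation, circadian rhythm, phosphoinositide 3-kinases and cytoskeleton regulation for ethanol. It also named components of transcriptional regulation for ethanol, among them the PRC1 complex, a Polycomb complex. It named histone methylation and cytokines for separation and for genes shared by all treatments, and cytokines also for the combined treatment. The regions here were classed as outside promoters but come from the same series, so the counts of those lists are not independent evidence.

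Potassium channels had 25 gained (5.18%) and 11 lost (2.28%) of 483 regions, both above the shares of all regions. Gained ones included regions near Kcnt2, a sodium-activated channel, with folds of 9.38 and 10.1, and Kcnk1, a two-pore leak channel. Lost ones included introns of Kcnmb2, a subunit of calcium-activated channels, with Control folds of 7.31 and 8.78. With equal numbers of peaks per library 8 of 370 regions were gained (2.16%, all regions 2.74%) and 14 lost (3.78%, all regions 3.81%), so that both shares were then below those of all regions.

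Adhesion and guidance genes followed the shares of all regions. Non-clustered cadherins and protocadherins had 31 gained (4.39%) and 7 lost (0.992%) of 706 regions, and clustered protocadherins 0 gained and 0 lost of 11. A gained region far from Cdh11, 1424292 bp from its start (chr8:101360437-101361214), had folds of 20.7 and 9.77, and a Control peak lay 415 bp from this region. Fat1, an atypical cadherin, had a gained region 7074 bp upstream of the start used in the files, in an intron by GENCODE, with folds of 9.80 and 9.11 and a lost one 227073 bp upstream with Control folds of 6.89 and 9.08. Synaptic adhesion genes had 17 gained (4.36%) and 4 lost (1.03%) of 390, with Cntnap2 and Cntnap5a among the gained. Axon guidance genes had 24 gained (4.43%) and 8 lost (1.48%) of 542. Among them a coding exon of Sema3b, a secreted guidance cue, was gained (chr9:107599654-107600358), with folds of 12 and 7.67, and an intron of Sema5b was lost (chr16:35580824-35581485), with Control folds of 10.7 and 8.78.

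Developmental regulators held many of the regions. Homeobox and developmental transcription factors had 76 gained (4.41%) and 26 lost (1.51%) of 1723 regions. A coding exon of Bcl11a, a factor of cortical neurons (chr11:24172589-24173099), was lost. It had 19 CpGs in 500 bp, and the folds were 7.73 in Control 1 and 8.19 in Control 2. Wnt ligands, receptors and antagonists had 14 gained (6.14%) and 2 lost (0.877%) of 228, the highest gained share of the 19 lists. Lrp5, a Wnt co-receptor, had a gained region in an intron (chr19:3655792-3656405) with folds of 11.4 and 9.11, and Dkk2, a Wnt antagonist, a lost intronic one with Control folds of 7.73 and 7. With equal numbers of peaks per library 5 of 161 Wnt regions were gained (3.11%, all regions 2.74%), and the list no longer ranked first, with calcium channels at 6.82% and ethanol and retinoid metabolism at 5.49%. Zinc finger protein genes had 36 gained (3.94%) and 17 lost (1.86%) of 914.

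Lists close to the exposure were small. Ethanol and retinoid metabolism had 5 gained (3.91%) and 2 lost (1.56%) of 128 regions. Rxra, a retinoid receptor, was gained in an intron (chr2:27695416-27696141) with folds of 10.6 and 7.37. Aldh1a2 and Aldh1a3, which make retinoic acid, were each near a lost region, with Control folds of 8.15 and 7.30 and of 7.31 and 7.30. The stress axis had 8 gained (5.48%) and 2 lost (1.37%) of 146, but with equal numbers of peaks 2 gained (1.87%, all regions 2.74%) and 4 lost (3.74%). Nr3c2, the mineralocorticoid receptor of hippocampal neurons, was gained in an intron (chr8:77136926-77137547) with folds of 8.96 and 6.97, and Avpr1a, a vasopressin receptor, had a lost region 136819 bp upstream with Control folds of 7.07 and 7.87. The DNA methylation machinery had 6 gained (5.94%) and 2 lost (1.98%) regions, with Gadd45g and Gadd45a, of active demethylation, among the gained.

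Chromatin, clock, imprinted, germline, signalling and receptor lists each had more gained than lost regions, as all regions did, and lost shares below the 1.41% of all regions. With equal numbers of peaks this did not hold for all, since phosphoinositide 3-kinases then had 0 gained and 4 lost regions (5.88%, all regions 3.81%), germline genes 1 and 3 (5.08%), and olfactory receptors a gained share of 2.63% (all regions 2.74%). Histone methyltransferases and Polycomb subunits had 8 gained (4.06%) and 1 lost (0.508%) of 197, the lost one 55509 bp upstream of Ezh2. Circadian clock genes had 7 gained (5.6%) and 1 lost (0.8%) of 125, of which Rora had 5 gained and the lost one. Phosphoinositide 3-kinases had 3 gained and 0 lost of 106, near Pik3c2a, Pik3c3 and Pik3r1. Imprinted genes had 7 gained (3.02%) and 3 lost (1.29%) of 232, with a gained region 27338 bp upstream of Dlk1 (folds 10.2 and 8.04) and a lost one 11292 bp from Rtl1 (Control folds 5.22 and 10.3). Germline genes had 3 gained and 1 lost of 83, and cytokines, chemokines and their receptors 24 gained (3.86%) and 4 lost (0.644%) of 621. Olfactory and vomeronasal receptors, large families of similar sequence, had 45 gained (6.02%) and 8 lost (1.07%) of 747.

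Markers of cell types varied around the shares of all regions. Over the 5 marker lists 15 of 485 regions were gained (3.09%) and 6 lost (1.24%), against 4.31% and 1.41% of all regions. Neuron markers had 4 gained (3.08%) and 3 lost (2.31%) of 130 regions, astrocyte markers 3 (3.06%) and 1 (1.02%) of 98, and oligodendrocyte markers 4 (5.06%) and 1 (1.27%) of 79. Microglia markers had 3 (3.8%) and 0 of 79 and vascular and choroid plexus markers 1 (1.01%) and 1 of 99. Housekeeping genes had 1 gained and 0 lost of 25. Among neuron markers an intron of Reln, a secreted protein that positions neurons, was called lost (chr5:22259884-22260472). Its folds in Control were 7.31 and 7.60, and it had no CpG in 500 bp. Other members of this list went the other way, with gained regions near Sst, Prox1 and Nefm. Camk2a was among the other lost ones.

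At the 10001 regions with a peak in all 4 libraries, fold enrichment itself was compared, with each library centred on its median. The medians were 10.0 and 10.3 in Control and 13.6 and 8.40 in Ethanol. By limma, 22 regions (0.22%) were higher and 13 (0.13%) lower in Ethanol at an adjusted p under 0.05, and at all 35 the groups did not overlap, as the choice by small p nearly fixes. Of all 10001 regions 40.2% had no overlap. At an unadjusted p under 0.05 there were 1154 regions. Without centring 3 regions were higher and 1 lower, so the share of higher calls went from 62.9% to 75%.

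The region with the smallest p was lower in Ethanol. It lay 139419 bp from the start of Mid1, an X-linked microtubule-associated ubiquitin ligase (chrX:170017464-170020843). The region was classed Intergenic, and by GENCODE its summit lay in Gm21887 and not in Mid1. Mid1 is known to span the border of the pseudoautosomal region in this species. Folds were 166 and 148 in Control 1 and 2 and 24 and 26.2 in Ethanol 1 and 2. The change was -2.72 ± 0.32 on the log2 scale (SE, limma adjusted p = 5.5e-05). Folds in Stress were 62.3 and 46.5 and in Ethanol + stress 29.0 and 43.2, all below both Controls, including those of mice without ethanol.

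Among higher regions, 2 lay 1263 bp apart upstream of Kcnd2, a channel of dendritic A-type potassium current, and are not independent. The first (chr6:20698810-20700191), 516382 bp upstream, had folds of 9 and 6.59 in Control and 64.9 and 22.9 in Ethanol (log2 change 2.25 ± 0.33, SE, limma adjusted p = 0.00123). The second (chr6:20701454-20702637) had 6.88 and 6.03 in Control and 29.6 and 20.4 in Ethanol (log2 change 1.86 ± 0.30, SE, limma adjusted p = 0.00306). Repeats made up 98% of the sequence around both summits. Stress libraries were high as well, at 23.8 and 44.9 for the first, against 32.9 and 21.9 in Ethanol + stress.

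A higher region assigned to Cdkn1c lay within Kcnq1 and at Kcnq1ot1, the non-coding RNA whose start is the imprinting control of that domain, methylated on the maternal copy (chr7:143295059-143296732). The region was classed Intergenic with a distance of 165516 bp to the start of Cdkn1c. Its distance to the start of Kcnq1ot1 was not measured, so it cannot be called outside the promoter of that RNA. Cdkn1c is a growth-limiting cyclin-dependent kinase inhibitor expressed from the maternal copy. Folds were 4.31 and 4.91 in Control and 25.3 and 11.6 in Ethanol (log2 change 1.82 ± 0.31, SE, limma adjusted p = 0.00427). It had 41 CpGs in 500 bp and no repeat sequence. Stress libraries had 8.62 and 13.6 and Ethanol + stress libraries 16.5 and 11.8, so that Control was the lowest of the 4 groups. Without centring its adjusted p was 0.105, and without Control 1 it was 0.0574, and it stayed called in the other alternatives in which it was tested.

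Some called regions were in amplified families where reads may be placed on the wrong copy. Near LOC100861615 (chr14:6336140-6336918) folds were 3.45 and 4.90 in Control and 18.8 and 19.6 in Ethanol (log2 change 2.15 ± 0.32, SE, limma adjusted p = 0.00148). Near 3110007F17Rik on X (chrX:123483756-123484970) folds were 6.25 and 4.41 in Control and 39.9 and 13.8 in Ethanol (log2 change 2.08 ± 0.33, SE, limma adjusted p = 0.00255). At Duxbl2 and Duxbl3, copies of a double homeobox gene (chr14:26125440-26126480), they were 9.88 and 12.3 in Control and 3.62 and 3.87 in Ethanol (log2 change -1.63 ± 0.32, SE, limma adjusted p = 0.0200).

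Further lower regions had smaller changes. In Dlec1, a gene often silenced by methylation in tumours (chr9:119116990-119117957), folds fell from 11.8 and 13.5 in Control to 5.22 and 3.73 in Ethanol (log2 change -1.59 ± 0.30, SE, limma adjusted p = 0.0170). In 2900092C05Rik they were 18.2 and 22.4 in Control and 7.92 and 6.51 in Ethanol (limma adjusted p = 0.0200). A region assigned to Rab18, a small GTPase of lipid droplets, had 21.1 and 28.9 in Control and 11.2 and 6.96 in Ethanol (limma adjusted p = 0.0200). In Ethanol 1 the fold, before centring, was above that in Ethanol 2 at 21 of the 22 higher and 10 of the 13 lower regions. Over all regions tested the median fold was also higher in Ethanol 1, at 13.6 against 8.40 in Ethanol 2. The same count over all regions was not made, so these counts do not set the called regions apart. Regions called higher had a median of 4.5 CpGs per 100 bp and those called lower 2.6. Repeats made up at least 90% of the sequence around the summit at 11 of the 22 higher and 6 of the 13 lower regions. The median repeat share over all 10001 regions tested was 75.6%.

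The number of calls moved with each library left out. With an arm of 1 library, the spread comes from the other pair, and that pair was wider in Ethanol than in Control (SD over regions of the deviation from the group mean, 0.246 and 0.207 in log2). Without Control 1 there were 11 calls and without Control 2 there were 10, and 9 and 6 of the 35 were then still called. Without Ethanol 1 there were 157 calls and without Ethanol 2 there were 385, with 29 and 33 of the 35 among them. The lone library is assumed to vary like the other group, so these counts do not show that the calls rest on one group more than the other. All 35 kept their direction in each of these. Of the 10 regions described, those near Mid1, LOC100861615 and 3110007F17Rik and the first near Kcnd2 stayed called in every alternative in which they were tested, and each of the other 6 lost the call without centring and without at least 1 Control library.

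The Stress and Ethanol + stress libraries took no part in the calls and were used to ask whether the same positions differed between separated mice with and without ethanol. Gained regions had a peak in 52.7% and 67.5% of cases in Stress 1 and 2 and in 57.0% and 44.3% in Ethanol + stress 1 and 2. The mean was 60.1% ± 10.4 (SD, n = 2) in Stress and 50.7% ± 9.04 in Ethanol + stress, a difference of -9.44 percentage points (two-sided exact permutation p = 0.667). The means thus did not run in the direction of the calls. The difference was -4.12 points with equal numbers of peaks and -16.8 to -2.08 points when 1 of these libraries was left out. Stress 1 and 2 had 39122 and 50299 peaks outside promoters and Ethanol + stress 1 and 2 had 41857 and 35203, and the part of these totals was not tested.

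Lost regions had a peak in 43.0% and 51.2% of cases in Stress and in 57.9% and 48.1% in Ethanol + stress. The means were 47.1% ± 5.74 (SD, n = 2) and 53.0% ± 6.94, a difference of 5.94 points (two-sided exact permutation p = 0.667). It was 7.82 points with equal numbers of peaks and 1.03 to 10.8 points when 1 library was left out. The direction was opposite to that of the calls for gained and for lost regions alike. Regions with a peak in 1 Control and 1 Ethanol library had 56.2% and 68.8% in Stress and 64.3% and 49.3% in Ethanol + stress, close to the gained regions.

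At least 1 Stress and at least 1 Ethanol + stress library had a peak at 1481 gained regions (58.6%) and 416 lost regions (50.4%). The share was 54.7% of all regions and 65.0% of regions with a peak in 1 Control and 1 Ethanol library. Of gained regions, 505 (20%) had a peak in all 4 of these libraries and 278 (11%) in none, against 28.8% and 21.3% of all regions and 23.2% and 9.78% of the mixed pairs. Of lost regions, 127 (15.4%) had a peak in all 4 and 117 (14.2%) in none. A peak in both Ethanol + stress and neither Stress library was present at 72 gained regions (2.85%) and 62 lost regions (7.52%), against 2.31% of all regions and 3.38% of the mixed pairs. The reverse was present at 179 gained regions (7.09%) and 37 lost regions (4.48%), against 4.09% of all regions and 5.63% of the mixed pairs.

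The called shared regions were also followed in these libraries. Of the 21 regions higher in Ethanol with a peak in all 8 libraries, 4 were also higher in Ethanol + stress than in Stress, and of the 11 lower ones 7 were also lower. With the log2 folds of these libraries centred on their medians, a scale chosen after seeing the data, these were 4 and 5. The difference between the 2 contrasts was not tested.

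**Figure D4:**
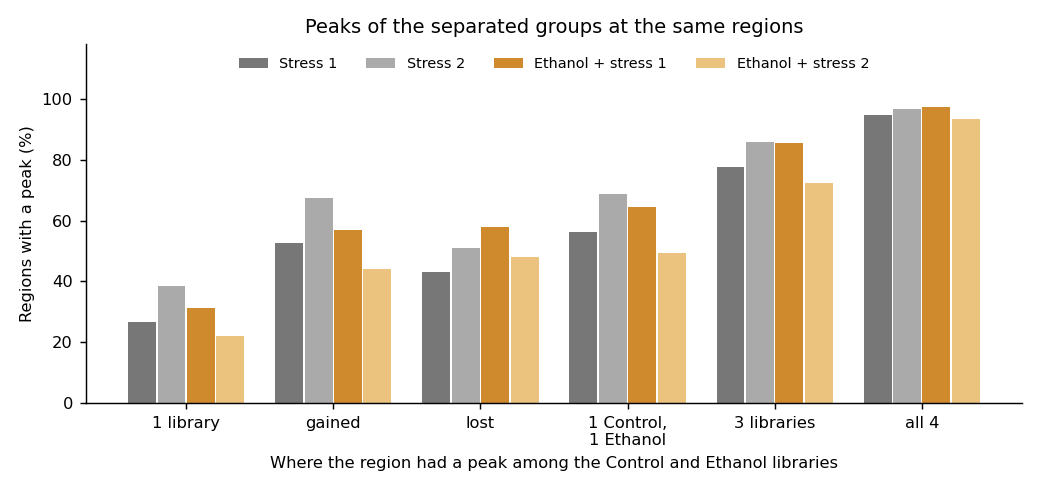
Percentage of regions (vertical axis) with a peak in each Stress (grey) and Ethanol + stress (orange) library, by where the region had a peak among the 4 Control and Ethanol libraries. Gained regions reached 44.3% to 67.5% and lost regions 43.0% to 57.9%, between regions of 1 library and regions of all 4 libraries.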

How the data were processed

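Per the deposited peak lists and the methods, reads were aligned to mm10 with HISAT2 2.1.0 (submitters' processing notes) and peaks were called by the authors with MACS for each library against its group's input, at a q-value limit of 1e-05. The authors' values were fold enrichment (a ratio to local background), the −log10 q-value, and a summit tag score that no result uses. Each peak had been given the nearest gene and a class. The study's own test of reads was not used.

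Peaks classed Genebody or Intergenic were merged at 1 bp of overlap (bedtools 2.31.1). The regions, gene lists and tests were chosen with earlier results of these data known. Per-library values were compared by two-sided exact permutation tests (scipy 1.17.1). Log2 fold at regions shared by all 4 libraries, centred on each library's median, was tested with limma 3.58.1 (R 4.3.3) with Benjamini-Hochberg adjustment at 0.05, a step tested on simulated data. CpGs and soft-masked repeats were read in 500 bp around the summit from the GRCm38 reference of RefSeq, and features from GENCODE. Named were 12 regions per direction by rank, up to 5 genes with the most calls, up to 3 list members per list and direction, and 5 shared regions per direction. Predicted genes, small RNAs, pseudogenes and olfactory or vomeronasal receptors were left out of the ranking of gained and lost regions. Single genes given beyond this rule were chosen after their values were seen. Libraries came from different mice, and the p-values measure the spread between those libraries. Alternatives changed the number or strength of peaks, the overlap, the classes, the centring, the replicates and the block.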

Additional observations from a re-analysis of the deposited data

Results flagged for a closer look

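At 10 of the 32 called shared regions with a peak in all 8 libraries, the direction between Ethanol and Control was opposite to that between Ethanol + stress and Stress, with no overlap of the libraries in either comparison. The difference between the contrasts was not tested, and lack of overlap is common with 2 libraries per group, since 43.3% of all 8650 regions with a peak in all 8 libraries had none between Stress and Ethanol + stress (46.7% with centring). At 5 other regions, all lower in Ethanol, the directions were the same with no overlap in either comparison (Mid1, Dlec1, Rab18, Mpdz and Ndufs5). With centring this held for Rab18 and Mpdz, and for 4 higher regions (3110007F17Rik, Cdkn1c, Defb33 and Ier5l), while Ndufs5 turned. The following values are log2 differences of Ethanol + stress minus Stress without centring, whereas the Ethanol changes were centred on library medians. With centring of these libraries too, chosen after seeing the data, all 10 kept the opposite direction and 8 still had no overlap, the exceptions being Lingo1 and Amy2a5. At 9 regions fold enrichment was higher in Ethanol than in Control and lower in both Ethanol + stress libraries than in both Stress libraries. These were the second region upstream of Kcnd2, the A-type potassium channel gene (-0.78), and regions assigned to Eea1, an endosomal tethering protein (-0.90), Grm4, a metabotropic glutamate receptor (-0.72), Cmtm7 (-0.89) and Gadd45g, a gene of the DNA damage response (-1.16). The others were assigned to Gm13139 (-0.48), Lingo1, a neuronal receptor component (-0.27), Itih5 (-0.50) and the pair Gm4187 and Gm4133 (-1.75). The region assigned to Amy2a5, a pancreatic amylase of an amplified family, was lower in Ethanol than in Control and higher in both Ethanol + stress libraries (0.45).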

How the results depend on the processing

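The balance of gained and lost regions depended on the number of peaks per library. Gained and lost regions numbered 1160 and 1610 with equal numbers of peaks, 1152 and 1600 when these were drawn before promoter peaks were left out, and 1284 and 398 with the upper 50% of peaks by q. Leaving out 1 library gave 4140 to 19732 gained and 1127 to 5719 lost regions. The highest gained count was without Ethanol 2 and the highest lost count without Control 2. In these settings the rule asks for 1 library of a group and not both, so both counts rise by construction. A −log10 q of at least 10, other overlaps, promoter peaks counted as present and removal of the sex chromosomes kept both counts within 1.5 times. With equal numbers the Ethanol minus Control difference turned to 29.5 bp for median length and 0.71 for median fold. Leaving out 1 library gave differences of -2875 to 19539 peaks, -0.72 to 1.62 percentage points in gene bodies, -19 to 14 bp in length and -0.99 to 0.17 in fold. The count of shared regions called was 4 without centring, 100 with quantile normalization, 141 with equal numbers, 112 with the spread from 8 libraries and 10 to 385 without 1 library, with fewest calls without Control 2 and most without Ethanol 2. Beyond the loosened rule for gained and lost regions, the cause of these shifts was not tested. The replicate block gave 132 calls, all 35 among them, but replicate numbers did not pair the samples (correlation of same-numbered deviations -0.028 over 10001 regions), and the blocked values of the other results kept their direction. Of 112 named gained regions 71 were kept with equal numbers and 53 with the upper 50% of peaks, and of 67 lost ones 58 and 17. Of 54 list counts 39 moved by over 1.5 times with equal numbers of peaks. Depth was unknown, the input of a group was 1 library, and absence of a peak does not show absence of methylation.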
